A study of Homo sapiens with 9 samples.

Results

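The 9 genes described here are BMP2, BMP4 and BMP6, ligands of the bone morphogenetic protein (BMP) family, GREM1, CHRDL1, BMPER, NOG and FST, secreted proteins that bind such ligands, and BMPR1B, a BMP receptor. They were taken by name from a deposited table of 36385 genes, and each name matched 1 row. RNA had been sequenced from MG-63, a human osteosarcoma line used as a stand-in for osteoblasts, grown for 7 days in osteogenic medium with dexamethasone (100 nM), ascorbic acid (50 µg/mL) and beta-glycerophosphate (10 mM). Every library had this medium, and what differed was the surface: boronized Ti6Al4V with HA (called the HA coating), Ti6Al4V with TiB2 (called TiB2) and plain Ti6Al4V (called bare alloy), with 3 libraries each. The TiB2 libraries were marked in the labels as not used in the submitters' final analysis. Whether the 3 libraries of a surface are separate cultures is not said in the labels, so the p-values reflect library-to-library spread that may be only technical.

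BMP ligands bind a complex of type I and type II serine-threonine kinase receptors, which phosphorylate SMAD1, SMAD5 and SMAD9. With SMAD4 these switch on target genes such as the ID genes and the inhibitory SMADs. BMP2 is known for inducing bone formation. Gremlin, noggin and the chordin family hold BMP ligands away from their receptors, follistatin does so for activins above all and for some BMPs, and BMPER can act for or against BMP signalling.

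Totals were 58464306 to 72542556 counts per library. The marker genes of mesenchyme and osteoblasts summed to 979.5 to 1517 FPKM on the HA coating, 1421 to 1513 on TiB2 and 2461 to 2846 on bare alloy, against 2.98 to 5.19 FPKM for 5 epithelial markers in all 9 libraries, although the labels call the line epithelial-like. VIM, SPARC, COL1A1 and COL1A2 carried the mesenchyme sum, while the means of THY1, ALPL and RUNX2 of the same list ran the other way. Mean THY1 was 10.7 FPKM on the HA coating, 18.2 on TiB2 and 5.58 on bare alloy. Mean ALPL was 3.53, 4.20 and 0.538 FPKM in the same order. Mean RUNX2 was 0.369, 0.429 and 0.260 FPKM, and its HA libraries overlapped those of bare alloy. Markers of mature osteoblasts (SP7, BGLAP, IBSP and DMP1) summed to at most 0.255 FPKM. The 5 macrophage markers summed to 27.38 to 40.76 FPKM on the HA coating, 37.25 to 44.34 on TiB2 and 30.83 to 38.3 on bare alloy. CD68 and CD14 carried that sum, and CSF1R, CD163 and PTPRC were at most 0.107 FPKM in any library. A set of 22 genes parted the libraries across the groups: 5 had at least 20 counts on the HA coating and in replicate 1 of bare alloy but at most 3 elsewhere, and 17 had the opposite pattern. The summed T cell markers were 0 in the HA libraries, 1.68 to 2.17 FPKM on TiB2 and 0 to 1.66 FPKM on bare alloy, with 0 in bare alloy replicate 1. In that library 4 rows of chromosome 21, given by identifier only, took 6.46% of the counts. Their share was 1.06% for replicate 2 of bare alloy and 0.617% for replicate 3. TiB2 libraries had 0.1375% to 0.155%, and HA libraries 0.0831% to 0.197%. Every bare alloy library thus exceeded every library of the other surfaces, and leaving out replicate 1 does not remove this difference. What these differences contribute to the results was not tested. The results are also given without bare alloy replicate 1 where that changes the call of a member. For several other genes only the number of leave-one-out fits that lost the call is given. The fit without bare alloy replicate 1 can be among them. Values against that library alone are given as fold changes, since a fit with 1 bare alloy library takes all its spread from the HA libraries. For the HA coating against TiB2 the surface and this split cannot be told apart.

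BMP2 RNA was far more abundant on both boron-containing surfaces than on bare alloy, while BMP4 did not differ by more than the spread between libraries. The antagonist genes did not move together. GREM1 and FST rose and CHRDL1 and BMPER fell on each boron-containing surface, and of these 5 antagonist genes the highest mean was that of FST on the HA coating, GREM1 on TiB2 (overlapping FST) and CHRDL1 on bare alloy. In edgeR, 5 of the 8 members tested passed an adjusted p of 0.05 for the HA coating against bare alloy, where 9.89% of all 20117 genes tested passed. The same 5 genes passed for TiB2 against bare alloy, where 25.1% of 20152 genes passed. These comparisons share the 3 bare alloy libraries. Pairs of HA libraries differed by 60.1 to 97.2 times sampling (Poisson) noise, and pairs of TiB2 or bare alloy libraries by 13.4 to 19.1 times. The 2 shares of genes called therefore do not rank the size of the effects. BMPR1B, the ninth member, had too few counts to be tested.

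**Figure D1:**
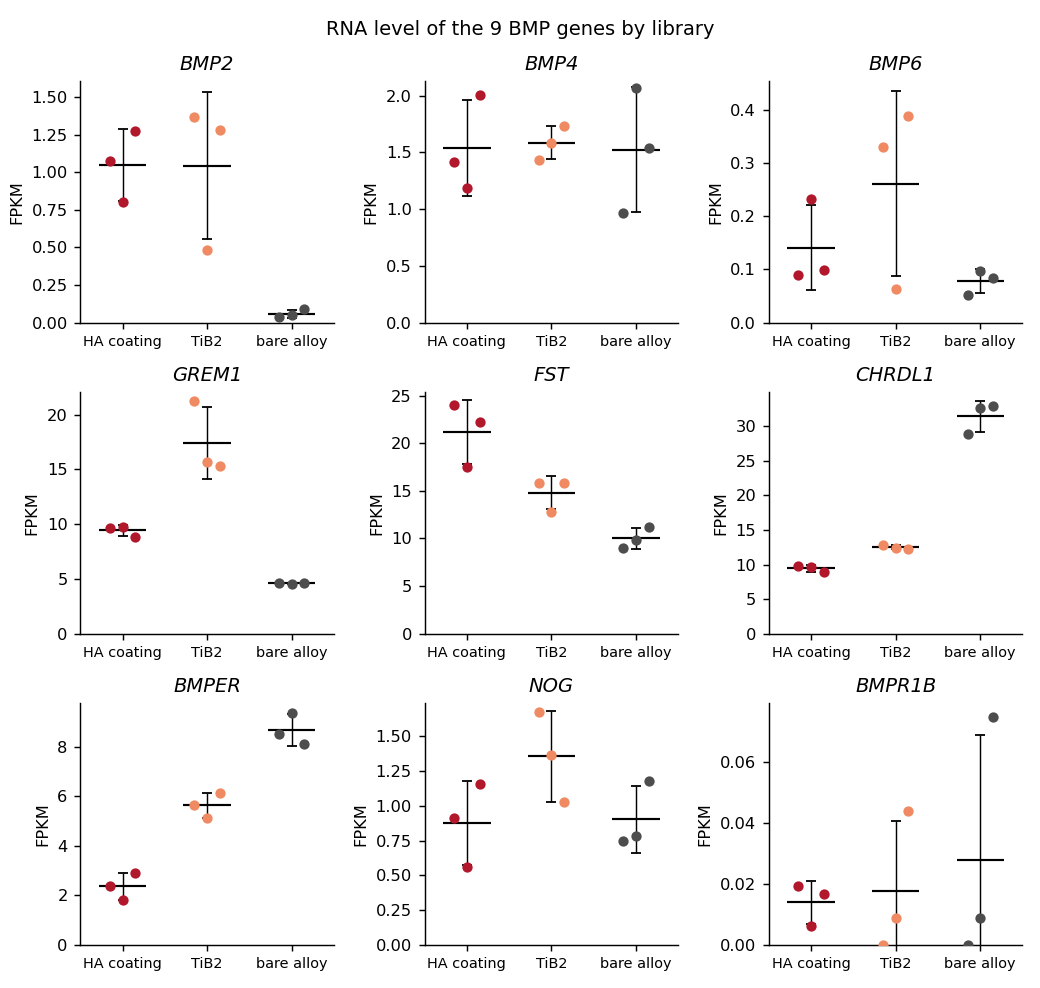
RNA level in FPKM (counts scaled to gene length and library size, as deposited) of the 9 genes in each library on the HA coating, TiB2 and bare alloy; points are libraries, lines the mean and bars the SD (n = 3 each). BMP2 lay at 0.80 to 1.27 FPKM on the HA coating, 0.48 to 1.37 on TiB2 and 0.038 to 0.088 on bare alloy, and CHRDL1 shows the opposite order, at 8.87 to 9.86, 12.2 to 12.8 and 28.9 to 32.9 FPKM.

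The 5' flanks of the 4 antagonist genes that changed are shown to set the genes that rose (GREM1, FST) beside those that fell (CHRDL1, BMPER). Each line holds the 250 bases before the RefSeq start site (GRCh38.p14), 5′ to 3′ on the gene's strand, and capitals mark matches to 5 motifs searched on both strands.
GREM1, chr15:32717754-32718003, plus strand: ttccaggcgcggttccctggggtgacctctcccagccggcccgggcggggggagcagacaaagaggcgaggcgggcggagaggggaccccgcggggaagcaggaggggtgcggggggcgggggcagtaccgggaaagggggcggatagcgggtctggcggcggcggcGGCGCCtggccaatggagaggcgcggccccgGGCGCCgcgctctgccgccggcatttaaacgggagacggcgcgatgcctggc
FST, chr5:53480379-53480628, plus strand: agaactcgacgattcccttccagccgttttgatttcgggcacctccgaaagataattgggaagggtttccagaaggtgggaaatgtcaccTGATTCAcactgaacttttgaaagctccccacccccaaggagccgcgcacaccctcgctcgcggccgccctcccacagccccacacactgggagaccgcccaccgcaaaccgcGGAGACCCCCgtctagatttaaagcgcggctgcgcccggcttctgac
CHRDL1, chrX:110795818-110796067, minus strand: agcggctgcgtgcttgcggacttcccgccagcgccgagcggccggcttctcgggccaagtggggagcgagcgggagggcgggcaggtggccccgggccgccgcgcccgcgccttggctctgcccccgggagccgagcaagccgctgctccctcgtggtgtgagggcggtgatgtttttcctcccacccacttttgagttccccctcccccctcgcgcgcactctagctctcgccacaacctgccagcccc
BMPER, chr7:33904665-33904914, plus strand: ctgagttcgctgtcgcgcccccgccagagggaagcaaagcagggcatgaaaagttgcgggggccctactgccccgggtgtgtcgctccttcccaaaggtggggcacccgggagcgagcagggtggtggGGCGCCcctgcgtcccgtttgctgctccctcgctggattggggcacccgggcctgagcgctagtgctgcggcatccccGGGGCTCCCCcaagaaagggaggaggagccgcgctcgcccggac
The motifs were the TATA box (TATAAA), the AP-1 site (TGANTCA), the cyclic AMP response element (TGACGTCA), a GC-rich SMAD element (GGCGCC) and the NF-kB consensus by name. GREM1 held the SMAD element at 83 and 52 bases before the start, and BMPER held it at 122, while 16.4% of 35116 RefSeq windows of this length hold it. FST held an AP-1 match at 160 bases before the start (6.57% of windows) and an NF-kB match, GGAGACCCCC, at 47 (5.21% of windows). BMPER held an NF-kB match, GGGGCTCCCC, at 44, and CHRDL1 matched none of the 5. The GC content of the windows was 76.8% for GREM1, 60% for FST, 73.2% for CHRDL1 and 70.8% for BMPER. The start sites lay 0, 3, 2 and 607 bases downstream of the deposited gene starts in the same order. A match is a description of these letters only. RefSeq windows matched 7 of the 9 members; BMP2 and NOG are named only.

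BMP2 (ENSG00000125845, GRCh38 chromosome 20, 6767686 to 6780246) had 244, 182 and 346 counts in HA replicates 1 to 3, 321, 113 and 300 counts in the TiB2 libraries and 9, 12 and 20 counts in the bare alloy libraries. On the length-scaled measure it stood at 1.07, 0.80 and 1.27 FPKM (counts scaled to gene length and library size) on the HA coating, 1.37, 0.48 and 1.28 FPKM on TiB2 and 0.038, 0.050 and 0.088 FPKM on bare alloy. All 6 libraries of the boron-containing surfaces lay above all bare alloy libraries, and TiB2 replicate 2 was the lowest of the 6. BMP2 was 17.3-fold higher on the HA coating than on bare alloy (log2 fold change 4.11 ± 0.40, SE; edgeR adjusted p = 0.000798) and 16.7-fold higher on TiB2 than on bare alloy (4.06 ± 0.47; edgeR adjusted p = 0.00031). With 1 library left out the log2 fold changes were 3.88 to 4.47 and 3.80 to 4.42, and against bare alloy replicate 1 alone BMP2 on the HA coating stood at 4.6, with no test read from it. Between the HA coating and TiB2 the log2 fold change was 0.05 ± 0.39 (edgeR adjusted p = 0.968). As in any bulk sample, fewer expressing cells and less RNA per cell cannot be told apart.

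BMP4 (ENSG00000125378, chromosome 14, 53949736 to 53956825), a close relative of BMP2 that binds the same receptors, had 1.41, 1.19 and 2.01 FPKM on the HA coating, 1.44, 1.59 and 1.73 FPKM on TiB2 and 0.96, 2.06 and 1.54 FPKM on bare alloy. The lowest and the highest of the 9 libraries were both on bare alloy, and the 3 surfaces overlapped. Its log2 fold change was 0.02 ± 0.32 for the HA coating against bare alloy (edgeR adjusted p = 0.972) and 0.02 ± 0.23 for TiB2 against bare alloy (edgeR adjusted p = 0.959). BMP6 (ENSG00000153162, chromosome 6, 7726099 to 7881728), a ligand that in the liver sets hepcidin and iron balance, was scarce: 0.089, 0.232 and 0.099 FPKM on the HA coating, 0.331, 0.063 and 0.389 FPKM on TiB2 and 0.052, 0.097 and 0.084 FPKM on bare alloy. TiB2 replicates 1 and 3 were the highest libraries, but TiB2 replicate 2 fell within the bare alloy range. BMP6 did not pass on the HA coating against bare alloy (0.80 ± 0.55; edgeR adjusted p = 0.390) or on TiB2 against bare alloy (1.67 ± 0.62; edgeR adjusted p = 0.0786). For TiB2 it passed without TiB2 replicate 2 (2.14; edgeR adjusted p = 0.00738) and by DESeq2 (adjusted p = 0.0403). BMP2 took 38.5% ± 2.9 of the summed FPKM of these 3 ligands on the HA coating, 34.6% ± 10.9 on TiB2 and 3.69% ± 1.44 on bare alloy (SD, n = 3 each).

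**Figure D2:**
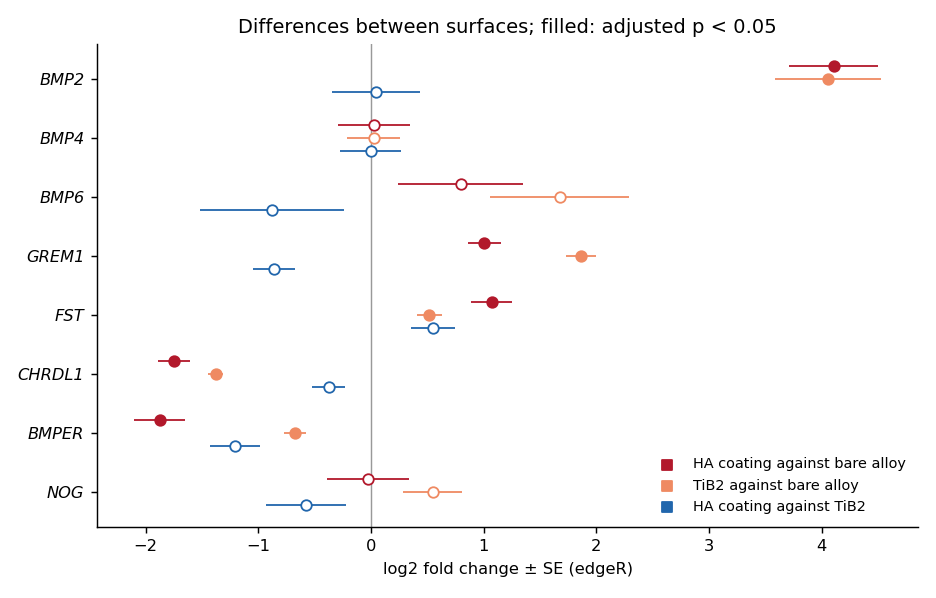
log2 fold change with its standard error from edgeR (x axis) of the 8 members tested, for the HA coating against bare alloy, TiB2 against bare alloy and the HA coating against TiB2; filled points passed an adjusted p of 0.05. BMP2 stood at 4.11 and 4.06 against bare alloy, GREM1 and FST were higher and CHRDL1 and BMPER lower on each boron-containing surface, and no member passed between the HA coating and TiB2.

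Of the antagonists, GREM1 and FST rose. GREM1 encodes gremlin, which binds BMP2 and BMP4 (ENSG00000166923, chromosome 15, 32718004 to 32734583). It had 9.69, 9.76 and 8.81 FPKM on the HA coating, 21.2, 15.7 and 15.4 FPKM on TiB2 and 4.66, 4.55 and 4.62 FPKM on bare alloy. The 3 surfaces did not overlap, and TiB2 was highest. GREM1 was 2.01-fold higher on the HA coating than on bare alloy (1.00 ± 0.15; edgeR adjusted p = 0.00444) and 3.64-fold higher on TiB2 than on bare alloy (1.87 ± 0.13; edgeR adjusted p = 1.62e-05). For the HA coating the call was lost without bare alloy replicate 3 (0.97; edgeR adjusted p = 0.0507), and the log2 fold change against bare alloy replicate 1 alone was 0.91. GREM1 shares 188 exonic bases with a gene on the opposite strand, AC090877.2, which had 3 to 36 counts per library against 4266 to 20758 for GREM1.

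FST encodes follistatin, which binds activins and some BMPs (ENSG00000134363, chromosome 5, 53480626 to 53487134). It had 24.0, 17.5 and 22.2 FPKM on the HA coating, 15.8, 12.8 and 15.8 FPKM on TiB2 and 9.0, 9.80 and 11.2 FPKM on bare alloy. The 3 surfaces did not overlap, in an order that differs from that of GREM1: the HA coating was highest and bare alloy lowest. FST was 2.1-fold higher on the HA coating than on bare alloy (1.07 ± 0.18; edgeR adjusted p = 0.00881) and 1.43-fold higher on TiB2 than on bare alloy (0.52 ± 0.11; edgeR adjusted p = 0.00733). The call for the HA coating was lost without bare alloy replicate 1 (1.05; edgeR adjusted p = 0.0516) and without bare alloy replicate 2 (1.04; edgeR adjusted p = 0.0614), and the log2 fold change against bare alloy replicate 1 alone was 1.14. The call for TiB2 was lost with all 9 libraries in 1 fit (edgeR adjusted p = 0.0768).

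CHRDL1 and BMPER fell. CHRDL1 encodes chordin-like 1, a BMP4-binding antagonist (ENSG00000101938, chromosome X, 110673856 to 110795819). It had 9.86, 9.69 and 8.87 FPKM on the HA coating, 12.8, 12.4 and 12.2 FPKM on TiB2 and 28.9, 32.6 and 32.9 FPKM on bare alloy. The bare alloy libraries were all above those of the other surfaces, and the spread within each surface was narrow. CHRDL1 was 3.37-fold lower on the HA coating than on bare alloy (-1.75 ± 0.14; edgeR adjusted p = 0.000349) and 2.60-fold lower on TiB2 than on bare alloy (-1.38 ± 0.06; edgeR adjusted p = 1.71e-06). Both calls held without each library in turn, and the log2 fold change of the HA coating against bare alloy replicate 1 alone was -1.71.

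BMPER encodes a secreted chordin-related protein that binds BMP ligands (ENSG00000164619, chromosome 7, 33904308 to 34156356). It had 2.39, 1.82 and 2.89 FPKM on the HA coating, 5.65, 5.12 and 6.12 FPKM on TiB2 and 8.50, 9.37 and 8.11 FPKM on bare alloy. The surfaces did not overlap, with the HA coating lowest. BMPER was 3.67-fold lower on the HA coating than on bare alloy (-1.88 ± 0.23; edgeR adjusted p = 0.00224) and 1.59-fold lower on TiB2 than on bare alloy (-0.67 ± 0.10; edgeR adjusted p = 0.000996). The call for the HA coating held without each library in turn, and that for TiB2 missed the threshold with all 9 libraries in 1 fit (edgeR adjusted p = 0.0502).

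NOG, which encodes noggin, a high-affinity BMP antagonist (ENSG00000183691, chromosome 17, 56593699 to 56595611), had 0.92, 0.56 and 1.16 FPKM on the HA coating, 1.68, 1.36 and 1.02 FPKM on TiB2 and 0.75, 0.78 and 1.18 FPKM on bare alloy. The surfaces overlapped, and NOG passed in no comparison (-0.03 ± 0.36 for the HA coating against bare alloy, edgeR adjusted p = 0.972; 0.55 ± 0.26 for TiB2 against bare alloy, edgeR adjusted p = 0.168). BMPR1B, a type I receptor for BMP ligands (ENSG00000138696, chromosome 4, 94757955 to 95158448), had 9, 3 and 9 counts on the HA coating, 0, 4 and 19 on TiB2 and 0, 4 and 31 on bare alloy. By counting error alone, a 0 is compatible with as many as 3 counts, which is 0.0454 to 0.0547 CPM (library-size-scaled counts) depending on the library. Replicate 3 was highest on TiB2 and on bare alloy, and no difference was detectable at this depth (without the filter on low counts, -0.80 ± 1.38 for the HA coating against bare alloy, edgeR adjusted p = 0.787).

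In the 6 libraries of the HA coating and TiB2 no member passed in edgeR, where 0.632% of 20086 genes passed (0.179% higher and 0.453% lower). At an unadjusted p under 0.05, 4 of 8 members differed, against 12% of all genes: GREM1 (-0.86 ± 0.18; edgeR adjusted p = 0.0883), BMPER (-1.21 ± 0.22; edgeR adjusted p = 0.0504), CHRDL1 (-0.37 ± 0.15; edgeR adjusted p = 0.381) and FST (0.55 ± 0.19; edgeR adjusted p = 0.341). The libraries of the HA coating and TiB2 did not overlap for any of these 4 genes. The 4 were picked by p-value from the same libraries, so the lack of overlap is no separate support. Its share over all genes was not computed. Other edgeR fits did call members: with all 9 libraries in 1 fit GREM1 (adjusted p = 0.0495) and BMPER (adjusted p = 0.0401), and BMPER also with DESeq2 size factors (adjusted p = 0.0496) and with a replicate block (adjusted p = 0.0178). DESeq2 called 2 members, GREM1 (adjusted p = 0.000898) and BMPER (adjusted p = 8.4e-05), and 501 genes over all, where edgeR called 127. By limma BMPER passed on log2(FPKM + 0.1) (adjusted p = 0.0436) and no member passed on log2(FPKM + 1). Without HA replicate 1 edgeR called GREM1 (adjusted p = 0.0416) and BMPER (adjusted p = 0.0407), and without HA replicate 3 it called BMPER (adjusted p = 0.0189).

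Set side by side per length, BMP2 was a small quantity next to the sum of the 5 antagonist genes on every surface. That sum is not a measure of BMP2 antagonism. Follistatin acts on activins above all, BMPER can act for or against BMP signalling, and other BMP-binding genes such as NBL1 are not in it. BMP2 FPKM equalled 2.29%, 2.03% and 2.90% of the summed FPKM of GREM1, CHRDL1, BMPER, NOG and FST in the HA libraries, 2.39%, 1.01% and 2.53% in the TiB2 libraries and 0.074%, 0.088% and 0.152% in the bare alloy libraries. All 6 values on the boron-containing surfaces exceeded those on bare alloy. The antagonist sum itself was 43.4 ± 3.8 FPKM on the HA coating, 51.7 ± 5.0 on TiB2 and 55.6 ± 3.4 on bare alloy (SD, n = 3 each), and its makeup differed. FST made up 48.7% ± 3.7 of the sum on the HA coating, 28.6% ± 2.3 on TiB2 and 18.0% ± 1.2 on bare alloy. GREM1 made up 21.9% ± 2.6, 33.5% ± 3.4 and 8.31% ± 0.60 in the same order of surfaces. CHRDL1 made up 22% ± 2.4 on the HA coating, 24.3% ± 1.9 on TiB2 and 56.5% ± 0.7 on bare alloy. These shares are descriptions, with no test.

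**Figure D3:**
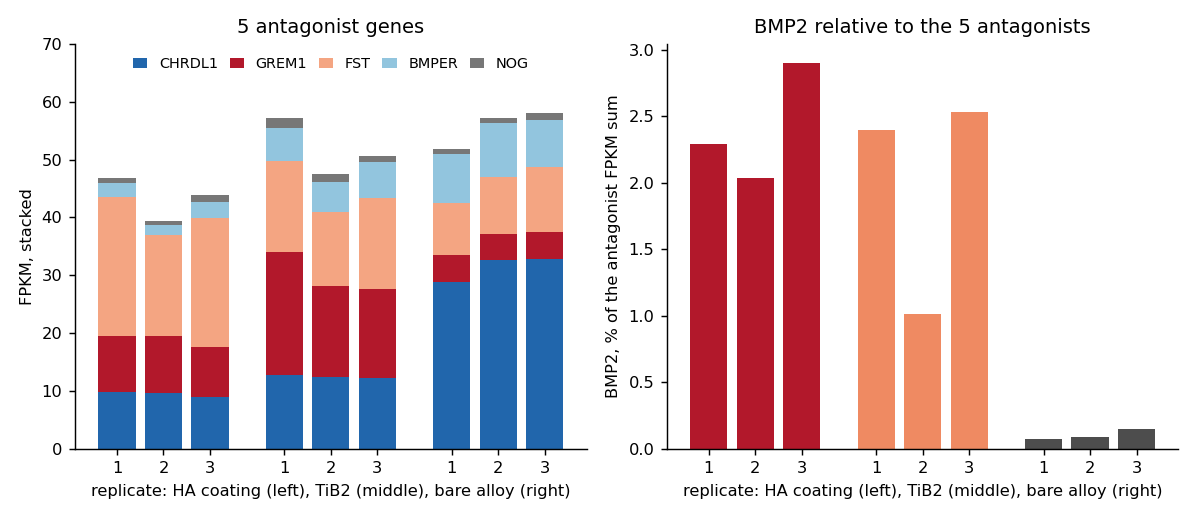
Left, FPKM of the 5 antagonist genes stacked for each library; right, BMP2 FPKM as a percentage of that sum; bars are single libraries, grouped as HA coating, TiB2 and bare alloy. CHRDL1 averaged 22% of the sum on the HA coating, 24.3% on TiB2 and 56.5% on bare alloy, and BMP2 was at least 1.01% of the sum in every library of the boron-containing surfaces and at most 0.152% on bare alloy.

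Ordered by mean FPKM, FST (21.2) led on the HA coating, followed by CHRDL1 (9.47), GREM1 (9.42), BMPER (2.37), BMP4 (1.54), BMP2 (1.05), NOG (0.877), BMP6 (0.140) and BMPR1B (0.0139). The ranges of CHRDL1 and GREM1 overlapped, as did those of BMPER and BMP4, BMP4 and BMP2, and BMP2 and NOG. On TiB2 the order was GREM1 (17.4), FST (14.8), CHRDL1 (12.5), BMPER (5.63), BMP4 (1.58), NOG (1.35), BMP2 (1.04), BMP6 (0.261) and BMPR1B (0.0175), with overlap between GREM1 and FST, FST and CHRDL1, BMP4 and NOG, and NOG and BMP2. On bare alloy CHRDL1 (31.5) led, ahead of FST (10.0), BMPER (8.66), GREM1 (4.61), BMP4 (1.52), NOG (0.903), BMP6 (0.0778), BMP2 (0.0590) and BMPR1B (0.0278). There FST and BMPER overlapped, as did BMP4 and NOG, BMP6 and BMP2, and BMP2 and BMPR1B.

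The genes whose profile over the 9 libraries lay nearest to that of BMP2 were TNFAIP8, an apoptosis regulator, TNFAIP6, a hyaluronan-binding secreted protein, TMEM156, a membrane protein, NAMPTP1, a pseudogene copy of NAMPT, and ZC3H12A, an RNase. The measure was the root mean square difference of centred log2(CPM + 1), which was 0.266 to 0.329 log2 units for these 5 of 13764 genes, against a spread of 0.981 for BMP2 about its own mean. TNFAIP8 lay at 44.2 to 70.2 CPM on the HA coating, 47.7 to 67.0 on TiB2 and 11.4 to 14.0 on bare alloy. Reads of NAMPTP1 cannot be told with certainty from those of NAMPT.

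Other genes of the pathway were taken from 6 lists of 70 genes, of which 66 were in the table and 56 were tested. For the HA coating against bare alloy 1 rose and 10 fell, with a median log2 fold change of -0.50 beside 0.02 for all genes tested; 5.02% of all genes were called higher and 4.88% lower. These 11 calls became 5, 3 and 2 without bare alloy replicates 1, 2 and 3, 16 and 5 without HA replicates 1 and 2, and 4 with no filter on low counts. Calls over all genes moved as well: 1990 in the main fit, 598 to 4185 with 1 library left out and 1093 with no filter. For TiB2 against bare alloy 6 rose and 18 fell, with a median of -0.36 beside 0.0018 for all genes; 12.9% of all genes were called higher and 12.2% lower. With all 9 libraries in 1 fit 12 of these genes were called in place of 24, and 2132 of all genes in place of 5059. Between the HA coating and TiB2 edgeR called none of the 56 (17 at an unadjusted p under 0.05, a threshold that 12% of all genes passed), but called 6 without HA replicate 1 and 1 with a replicate block. There limma called none at either pseudocount and DESeq2 called 5. Over all genes this comparison had 127 calls in edgeR, 1224 without HA replicate 1 and 501 by DESeq2.

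Among genes that BMP signalling is known to induce, those that changed against bare alloy were all lower, on the surfaces where BMP2 RNA was higher. Of 11 tested, 6 fell and none rose on the HA coating against bare alloy (median -1.06), and 7 fell and none rose on TiB2 against bare alloy (median -0.75). Over all genes tested, 4.88% were called lower on the HA coating and 12.2% on TiB2. SMAD6, an inhibitory SMAD, had 2.02, 2.08 and 0.925 FPKM on the HA coating and 3.74, 4.90 and 6.70 FPKM on bare alloy (-1.64 ± 0.29; edgeR adjusted p = 0.0102). DLX3, a homeobox factor of bone and skin, fell 2.67-fold on the HA coating (edgeR adjusted p = 0.0103) and 3.20-fold on TiB2 (edgeR adjusted p = 0.000648) against bare alloy. ATOH8, a helix-loop-helix factor, fell 2.40-fold on the HA coating against bare alloy (edgeR adjusted p = 0.00443). On TiB2 the largest falls were ID4, at 0.587, 0.716 and 0.803 FPKM against 3.10, 3.65 and 3.36 FPKM on bare alloy (4.96-fold lower; edgeR adjusted p = 1.3e-05), and ID2, 4.46-fold lower (edgeR adjusted p = 3.7e-05). Both encode inhibitors of helix-loop-helix factors. Between the HA coating and TiB2 edgeR called none of the 11, and 8 had an unadjusted p under 0.05, a threshold that 12% of all genes passed. Of these 8, ID2, ID3 and ID4 were higher on the HA coating, while ID1, SMAD6, HEY1, MSX1 and MSX2 were lower. The list median was 0.03. DESeq2 called 3 of the 11, all higher on the HA coating. Over all genes DESeq2 called 501 for this comparison, where edgeR called 127. The 4 endothelial markers summed to 1.5 to 1.61 FPKM on the HA coating, 1.26 to 1.37 on TiB2 and 4.01 to 5.07 on bare alloy. That difference is 1 gene, CDH5, at a mean of 0.348 FPKM on the HA coating, 0.493 on TiB2 and 3.83 on bare alloy. Mean PECAM1 was 1.10, 0.784 and 0.778 FPKM in the same order, and KDR and VWF were at most 0.135 FPKM in any library.

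The count for the HA coating changed with the libraries used. Of the 11 genes, 4 were called without bare alloy replicate 1, 3 without replicate 2, and 2 without replicate 3. Without HA replicate 2, 3 were called. Calls over all genes moved too, from 1990 to between 598 and 4185 with 1 library left out. At an unadjusted edgeR p under 0.05, the same 4 fits had 8, 7, 7 and 7 of the 11 genes. The shares of all genes were 20.3%, 19.2%, 17.5% and 24.5% in the same order. The median log2 fold change of the 11 genes against bare alloy replicate 1 alone was -0.72. SMAD6 missed the threshold without bare alloy replicate 3 (edgeR adjusted p = 0.050), while DLX3 and ATOH8 kept their calls without each library in turn. For TiB2 7 or 8 genes were called without each library in turn. ID1, chosen after its values were seen, had 28.4, 15.6 and 35.2 FPKM on the HA coating, 39.6, 48.3 and 44.6 on TiB2 and 23.3, 92.5 and 105 on bare alloy, so that bare alloy replicate 1 stood apart from replicates 2 and 3. ID1 passed in neither comparison with bare alloy (edgeR adjusted p = 0.0996 for the HA coating and 0.202 for TiB2).

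**Figure D4:**
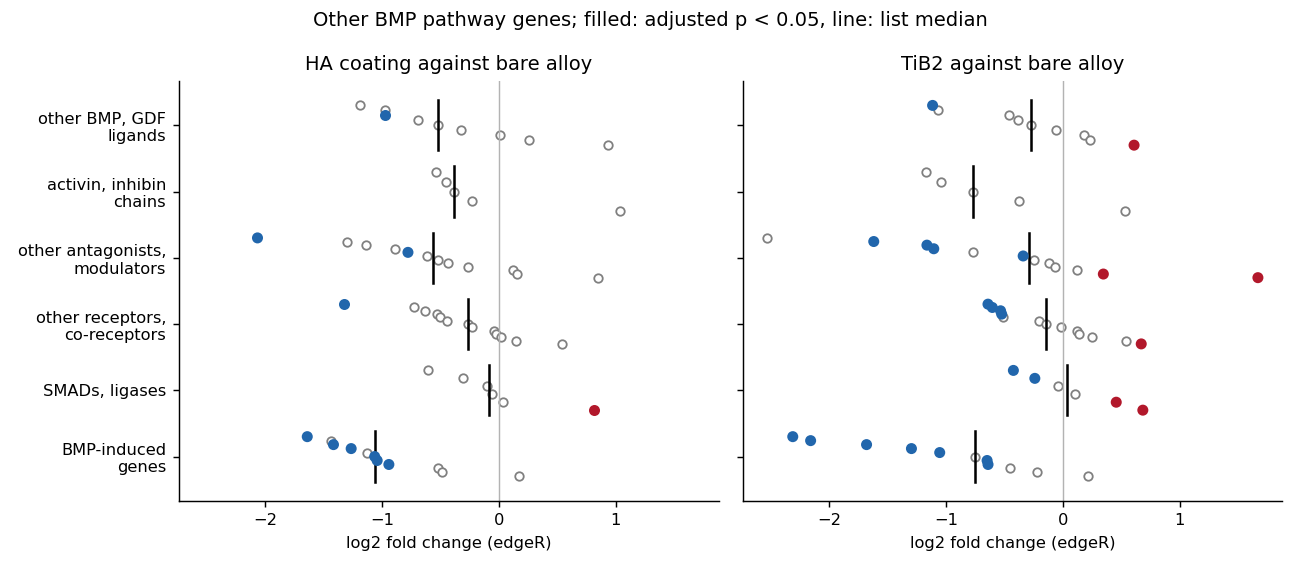
log2 fold change from edgeR (x axis) of 56 other BMP pathway genes by list, for the HA coating against bare alloy (left) and TiB2 against bare alloy (right); each circle is a gene, filled circles passed an adjusted p of 0.05 (red higher, blue lower) and black lines are list medians. The BMP-induced genes have medians of -1.06 on the HA coating and -0.75 on TiB2, with 6 and 7 of 11 genes called lower. Over all genes tested, 4.88% and 12.2% were called lower.

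Among other ligands 9 were tested, and GDF6, a BMP family member of joint and skull development, was the most abundant. It had 26.7, 15.1 and 27.7 FPKM on the HA coating, 20.6, 23.9 and 20.6 FPKM on TiB2 and 40.1, 46.2 and 50.0 FPKM on bare alloy. All bare alloy libraries were above the others. GDF6 was 1.96-fold lower on the HA coating than on bare alloy (edgeR adjusted p = 0.0452, lost without any 1 of the bare alloy libraries) and 2.16-fold lower on TiB2 than on bare alloy (edgeR adjusted p = 1.8e-05). BMP8B was 1.53-fold higher on TiB2 than on bare alloy (edgeR adjusted p = 0.0315, lost in 4 of the 6 leave-one-out fits). None of the 5 activin and inhibin chains, the main ligands of follistatin among them, passed in edgeR against bare alloy. Over all genes tested, 9.89% passed on the HA coating and 25.1% on TiB2.

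Of 12 other antagonists and modulators tested, 2 fell and none rose on the HA coating, and 4 fell and 2 rose on TiB2, each against bare alloy. Over all genes tested, 9.89% were called on the HA coating and 25.1% on TiB2. Members of this list outdid the 5 antagonists above in level, and 2 are given here, chosen after their values were seen. FSTL1 averaged 79.8 FPKM on the HA coating, 87.4 on TiB2 and 107 on bare alloy. NBL1, a BMP-binding protein of the gremlin family, averaged 36.7, 27.0 and 56.1 FPKM in the same order. On TiB2 NBL1 was 2.15-fold lower (edgeR adjusted p = 7.17e-05) and FSTL1 1.26-fold lower (edgeR adjusted p = 0.0136) than on bare alloy. Neither passed on the HA coating against bare alloy (edgeR adjusted p = 0.135 for NBL1 and 0.127 for FSTL1). CHRD, which encodes chordin, was 4.19-fold lower on the HA coating (edgeR adjusted p = 0.0398, lost without any 1 of the bare alloy libraries) and 3.07-fold lower on TiB2 (edgeR adjusted p = 0.00208) than on bare alloy. CHRD was scarce, at a mean of 0.152 FPKM on the HA coating, 0.216 on TiB2 and 0.648 on bare alloy. BMP1, the protease that cleaves chordin, was 1.72-fold lower on the HA coating than on bare alloy (edgeR adjusted p = 0.0432, lost in 5 of the 6 leave-one-out fits). On TiB2 against bare alloy CHRDL2, a paralog of CHRDL1, was 3.18-fold higher (edgeR adjusted p = 0.0160, lost in 2 of the 6 leave-one-out fits), unlike CHRDL1. CHRDL2 was scarce, at a mean of 0.473 FPKM on TiB2 and 0.141 on bare alloy. TLL1, another chordin-cleaving protease, was 2.24-fold lower on TiB2 than on bare alloy (edgeR adjusted p = 0.00619), at means of 0.170 and 0.370 FPKM.

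Of 13 other receptors and co-receptors tested, 1 fell on the HA coating, and 4 fell and 1 rose on TiB2, each against bare alloy. Over all genes tested, 9.89% were called on the HA coating and 25.1% on TiB2. NEO1, neogenin, a receptor for repulsive guidance molecules, was 2.5-fold lower on the HA coating (edgeR adjusted p = 0.0357, lost in 4 of the 6 leave-one-out fits) and 1.52-fold lower on TiB2 (edgeR adjusted p = 0.00612) than on bare alloy. RGMB, a BMP co-receptor, was 1.59-fold higher on TiB2 than on bare alloy (edgeR adjusted p = 0.00146), and the type II receptor ACVR2A was 1.56-fold lower (edgeR adjusted p = 0.0341, lost in 4 of the 6 leave-one-out fits). The main BMP2 receptors, chosen after their values were seen, were BMPR1A, at 4.90, 6.79 and 5.08 FPKM on the HA coating, 4.65, 4.34 and 4.97 on TiB2 and 5.89, 6.99 and 6.52 on bare alloy, and BMPR2. On TiB2 BMPR1A was 1.44-fold and BMPR2 1.45-fold lower than on bare alloy (edgeR adjusted p = 0.00144 and 0.00035). On the HA coating neither passed against bare alloy (edgeR adjusted p = 0.381 for BMPR1A and 0.109 for BMPR2).

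Of 6 SMAD transducers and ligases, 1 rose on the HA coating, and 2 rose and 2 fell on TiB2, each against bare alloy. Over all genes tested, 9.89% were called on the HA coating and 25.1% on TiB2. SMAD1, a BMP-activated SMAD, had 3.58, 4.20 and 2.98 FPKM on the HA coating, 3.56, 3.29 and 3.15 FPKM on TiB2 and 1.62, 2.02 and 2.39 FPKM on bare alloy. It was 1.75-fold higher on the HA coating (edgeR adjusted p = 0.0243, lost in 4 of the 6 leave-one-out fits) and 1.61-fold higher on TiB2 (edgeR adjusted p = 0.00284) than on bare alloy. On TiB2 SMURF1, a ubiquitin ligase for SMADs, was 1.37-fold higher (edgeR adjusted p = 0.0154, lost without bare alloy replicate 2) and SMAD9 1.34-fold lower (edgeR adjusted p = 0.0427, lost in all 6 leave-one-out fits) than on bare alloy.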

How the data were processed

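The authors deposited 1 table holding, gene by gene, raw counts and FPKM for 9 libraries, per the file headers. The submitters' processing notes name featureCounts 2.0.1, HISAT2 2.2.1, cutadapt 2.10, limma, StringTie 2.1.4 and GRCh38, with no roles; strand use is not given in the sources used here. Libraries were assigned to surfaces by their labels.

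Each comparison used its own 6 libraries: edgeR 4.0.16 (R 4.3.3) with filterByExpr, TMM scaling and the quasi-likelihood test, two-sided, Benjamini-Hochberg adjusted over all genes tested, threshold 0.05. An SE is the log2 fold change divided by the square root of F. CPM use TMM over all 9 libraries. The alternatives used DESeq2 1.42.0, limma 3.58.1 on log2(FPKM + 1) and log2(FPKM + 0.1), and a GC and length offset per library from GENCODE transcripts, chosen after seeing the data. The edgeR step was tested on simulated data. No replicate pair agreed within sampling noise. Pairs of bare alloy or TiB2 libraries stood at 13.4 to 19.1 times the Poisson value and pairs of HA libraries at 60.1 to 97.2 times. The members and lists were chosen with earlier results of these data known. All 9 members were named whatever their result, with up to 3 called genes of each list per comparison (largest change, no overlap) and the 5 profiles nearest to BMP2. Promoter windows are from RefSeq (GRCh38.p14). Python 3.11.15, pandas 2.3.3 and matplotlib 3.10.9 were used.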

Additional observations from a re-analysis of the deposited data

How the results depend on the processing

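Across 344 recomputed log2 fold changes of the 8 tested members, 310 kept their direction and side of the threshold, 7 lost and 12 gained a call, and 15 changed sign, none of them called. The sign changes were NOG on the HA coating against bare alloy (main -0.03; 0.019 with the GC and length offset, 0.16 against bare alloy replicate 1 alone, 0.24 without HA replicate 2 and 0.17 without bare alloy replicate 3; -0.35 to 0.24 with 1 library left out), BMP4 against bare alloy (HA coating: -0.29 without HA replicate 3 and -0.19 without bare alloy replicate 1, range -0.29 to 0.28; TiB2: -0.05 without TiB2 replicate 3 and -0.19 without bare alloy replicate 1, range -0.19 to 0.27), and, for the HA coating against TiB2, BMP4 (0.010 with all 9 libraries and 0.012 with the offset; 0.08, 0.18 and 0.07 without HA replicate 1, HA replicate 2 and TiB2 replicate 3, range -0.33 to 0.18) and BMP2 (-0.20 without HA replicate 3 and -0.30 without TiB2 replicate 2, range -0.30 to 0.29). BMP2 against bare alloy stood at 0.95 (HA coating) and 0.92 (TiB2) on log2(FPKM + 1), where the pseudocount exceeds its level on bare alloy.

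Over all genes, the HA coating against bare alloy had 1990 calls, 1093 with no filter, 3562 by DESeq2, 3518 with all 9 libraries, 3463 with the offset (2051 higher and 1412 lower, against 1009 and 981), 286 against bare alloy replicate 1 alone (spread from the HA libraries only) and 598 to 4185 with 1 library left out; 5 members were called, 3 against bare alloy replicate 1 alone and 4 to 5 with 1 library left out. BMP-induced calls there were 6, 3 with no filter, 0 against bare alloy replicate 1 alone and 2 to 7 with 1 library left out. TiB2 against bare alloy had 5059 calls and 2132 with all 9 libraries, where 3 of its 5 member calls were left; with 1 library left out they were 3685 to 4211 and 5 to 6. The HA coating against TiB2 had 127 calls, 35 with no filter, 501 by DESeq2, 67 with all 9 libraries, 195 with the replicate block and 49 to 1224 with 1 library left out (the most without HA replicate 1); members called were 0, 1 with DESeq2 size factors, 2 by DESeq2, 1 by limma on log2(FPKM + 0.1), 2 with all 9 libraries, 1 with the replicate block and 0 to 2 with 1 library left out, and BMP-induced calls 0, 3 by DESeq2, 1 with the replicate block and 0 to 3. On CPM in place of FPKM, BMP2 was 1.46% of the antagonist sum on the HA coating and 0.923% on TiB2, since CPM are not scaled to length. The deviations of same-numbered libraries were weakly correlated (-0.177 to 0.183 over 14566 genes). With 3 libraries per surface this cannot exclude a batch shared by same-numbered libraries, and the labels do not say how the libraries were numbered. With the replicate block 1357 genes were called for the HA coating and 3625 for TiB2 against bare alloy, with 5 members each. The cause of the other moves was not tested.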
